A study of Mus musculus with 12 samples.

Results

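The 7 genes described here mark muscle satellite cells or their quiescent state: *Pax7*, *Pax3*, *Calcr*, *Spry1*, *Cdh15*, *Vcam1* and *Chodl*. They were chosen by symbol, as known markers, from the 55450 genes of a table of RNA-seq read counts. Each symbol matched 1 Ensembl gene, and all 7 were among the 19276 genes with enough counts to be tested. The RNA came from tibialis anterior (TA), a fast muscle of the lower hindlimb, of mice with WT genotype. Their background is spelled 129Pas in the labels and 129SvPas in the methods of the study. The labels give no treatment, and the groups differ in age: E18.5 (embryos shortly before birth), 2 wks and 7 wks, with *n* = 4 mice per age and 12 libraries in all. The libraries were made from polyA-selected RNA of whole muscle pieces, in which satellite cells are a minority beside fibres, vessels, nerve and connective tissue.

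Satellite cells lie between a muscle fibre and its basal lamina and are the stem cells of the muscle. In the fetus and in young pups the corresponding progenitors divide, fuse with growing fibres and supply their nuclei, and as the muscle matures those that remain enter quiescence. PAX7 is the transcription factor that defines them, PAX3 is its paralogue, the calcitonin receptor and the signalling inhibitor Sprouty1 are tied to quiescence, and M-cadherin, VCAM1 and chondrolectin are membrane proteins by which the cells attach or are recognised. In bulk RNA of a whole muscle, fewer satellite cells and less RNA of a gene per cell cannot be told apart.

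The positions given here are those of RefSeq on GRCm38.p6, the assembly also called mm10 that the submitters' processing notes name. *Pax7* spans chr4:139737059-139833530 and *Pax3* chr1:78101267-78197136, *Calcr* spans chr6:3685678-3764713, *Vcam1* chr3:116110020-116129688 and *Spry1* chr3:37639947-37644599, and *Cdh15* and *Chodl* span chr8:122848374-122867397 and chr16:78930841-78951736. *Calcr* is the one member that hosts microRNA genes, *Mir489* and *Mir653*, on its own strand and without a shared exon base. miR-489 is itself known as a regulator of satellite cell quiescence, so the mature sequences of both microRNAs are shown, 5′ to 3′, with the seed (bases 2 to 8) in capitals.
miR-489-3p, chr6:3721922-3721944, minus strand: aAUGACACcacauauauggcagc
miR-489-5p, chr6:3721957-3721981, minus strand: uGUCAUAUgugugaugacacuuucu
miR-653-5p, chr6:3721355-3721375, minus strand: gUGUUGAAacaaucucuacug
miR-653-3p, chr6:3721315-3721335, minus strand: uUCACUGGaguuuguuucagu
No seed was shared between these 4 RNAs. Both microRNA genes had 0 counts in all libraries, which were made for polyadenylated RNA, so the counts of *Calcr* say nothing of the mature microRNAs.

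With TMM scaling, *Spry1* and *Cdh15* had the most similar profiles over the libraries of any pair of members (below). The 250 bases before their starts in the RefSeq promoter table are therefore shown, on the plus strand of GRCm38.p6. Capitals mark CANNTG, the E-box that myogenic regulatory factors can bind, and GGGCGG or its complement, the GC box, searched on both strands.
*Spry1*, chr3:37639697-37639946: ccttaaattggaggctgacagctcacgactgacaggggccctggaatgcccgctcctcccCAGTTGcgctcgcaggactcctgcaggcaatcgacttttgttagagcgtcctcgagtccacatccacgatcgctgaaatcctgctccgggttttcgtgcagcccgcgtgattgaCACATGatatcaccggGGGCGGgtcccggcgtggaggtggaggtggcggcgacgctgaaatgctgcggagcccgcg
*Cdh15*, chr8:122848124-122848373: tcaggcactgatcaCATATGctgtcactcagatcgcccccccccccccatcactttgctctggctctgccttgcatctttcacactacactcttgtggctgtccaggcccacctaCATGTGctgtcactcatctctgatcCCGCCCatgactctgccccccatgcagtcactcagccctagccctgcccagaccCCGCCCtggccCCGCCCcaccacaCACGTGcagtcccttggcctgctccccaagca
The *Spry1* window held 2 E-boxes and 1 GC box, and the *Cdh15* window held 3 E-boxes and 3 GC boxes, with no overlap between motifs. Of the 32851 promoter windows of the table, cut to the same length, 66.2% held an E-box and 32.7% a GC box, so neither motif sets these windows apart. TGGGAA, the core searched for the Notch partner RBPJ, was in neither window and in 21.6% of all windows. The windows had a GC content of 62.4% and 62.0%, against a median of 52.4%, with 23 CpG in *Spry1* and 5 in *Cdh15* against a median of 6. The table held 5 of the 7 members.

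Library totals were 63018968 to 123449246 counts. The composition of the RNA changed with age, and 20 genes, chosen for their abundance over all libraries, held a share of 8.38% to 11.3% at E18.5 that reached 36.3% to 37.7% by 7 wks. Levels are therefore given in CPM after TMM scaling, which is the read count relative to a library size that centres the bulk of the genes, and changes as log2 fold changes of the later over the earlier age, with adjusted p from the quasi-likelihood test of edgeR over all tested genes. Scaling to the total count lowered the median change of all genes by 0.93 on the log2 scale from E18.5 to 2 wks, by 0.35 from 2 to 7 wks and by 1.28 from E18.5 to 7 wks, and results that turn with it are named. Replicate 2 at E18.5 stood apart: it had the highest summed CPM of 7 mature fibre genes at that age (14195, against 6443 to 8119 in the others) and of 5 melanocyte and skin genes (10.4, against at most 2.39), with 757 counts of the keratin *Krt5*. Values without it are given where they differ.

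Per kilobase of exon, the scale used to compare genes with each other, the members ranged over 2 orders of magnitude. The length was that of all annotated exons of a gene together. It was 8992 bases for *Vcam1*, whose longest transcript has 4088, 5729 against 2851 for *Chodl*, and 5860 on both counts for *Pax7*. The order and overlaps below can therefore turn with the length used, and an order by transcript length was not tested. At E18.5 the mean CPM per kb was 7.44 for *Chodl*, 4.27 for *Spry1*, 3.85 for *Vcam1*, 2.93 for *Cdh15* and 2.07 for *Pax7*, and the libraries of each neighbouring pair in this order overlapped. *Calcr* (0.60) and *Pax3* (0.0563) lay below them without overlap. At 2 wks *Spry1* led with 5.98, followed by *Cdh15* with 4.18, *Chodl* with 3.12, *Pax7* with 1.41, *Vcam1* with 1.08, *Calcr* with 0.610 and *Pax3* with 0.0465. Of these neighbours, *Spry1* and *Cdh15*, *Chodl* and *Pax7*, and *Calcr* and *Pax3* did not overlap. At 7 wks the order was *Spry1* (4.61), *Cdh15* (3.47), *Chodl* (3.06), *Vcam1* (0.870), *Pax7* (0.818), *Calcr* (0.309) and *Pax3* (0.0534), where *Cdh15* overlapped with both *Spry1* and *Chodl*, which did not overlap with each other, and *Vcam1* overlapped with *Pax7*.

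**Figure D1:**
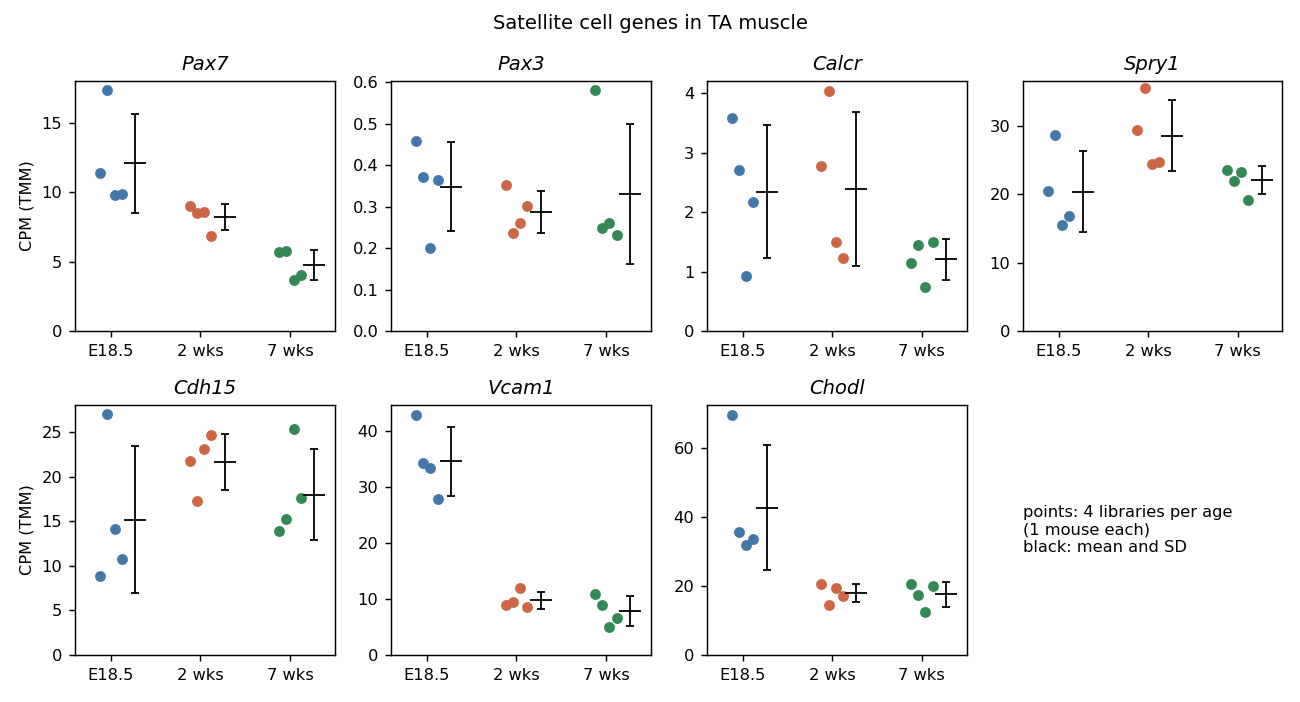
Level of each member in CPM after TMM scaling (linear axis from 0), by age, with 1 point per library (*n* = 4 per age) and the mean with SD in black. *Pax7*, *Vcam1* and *Chodl* at E18.5 lie above all libraries of both later ages, while *Pax3* and *Calcr* overlap between all ages.

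*Pax7*, the defining transcription factor of the lineage, fell in both intervals. Its level was 11.4, 17.4, 9.79 and 9.88 CPM at E18.5, 9.02, 8.51, 8.61 and 6.90 at 2 wks, and 5.70, 5.75, 3.71 and 4.02 at 7 wks. The highest library was replicate 2 at E18.5, and no 2 ages overlapped. The mean was 12.1 ± 3.57 (SD, *n* = 4) at E18.5, and it declined to 8.26 ± 0.936 at 2 wks and then to 4.79 ± 1.08 at 7 wks, so that 39.6% of the fetal level remained on the TMM scale. The log2 fold change was -0.55 (SE 0.22, adjusted p = 0.0364) to 2 wks, -0.79 (SE 0.22, adjusted p = 0.0169) from 2 to 7 wks and -1.34 (SE 0.22, adjusted p = 9.35e-05) over the whole span, and the changes of the intervals differed by 0.23 (95% interval -0.50 to 0.96). The change to 2 wks did not pass without replicate 2 at E18.5 (-0.33) or without any one of the 4 libraries at 2 wks (-0.46 to -0.57), and the change from 2 to 7 wks did not pass without replicate 4 at 7 wks (-0.71) or with the trend over GC content removed (-0.61). The change over the whole span passed with each library left out in turn (-1.11 to -1.43). The size of the fall depended on the scaling: it was larger with total counts (-1.47 to 2 wks, -2.61 over the whole span) and after GC correction (-1.39 and -2.0).

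*Pax3*, the paralogue that drives limb muscle progenitors in the embryo, was the least abundant member at all ages. Its counts were 66, 64, 41 and 73 at E18.5, 21, 23, 19 and 23 at 2 wks and 29, 16, 17 and 14 at 7 wks, which is 0.457, 0.371, 0.200 and 0.364 CPM, 0.352, 0.237, 0.260 and 0.30 CPM, and 0.582, 0.249, 0.260 and 0.231 CPM. All ages overlapped, and replicate 1 at 7 wks was the highest of all libraries. The log2 fold change over the whole span was -0.09 (95% interval -0.80 to 0.62, adjusted p = 0.839), and with total counts it was -1.35 and passed.

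With TMM scaling the integrin ligand *Vcam1* had the largest fall of the members to 2 wks and over the whole span. With the GC trend removed, *Pax7* fell nearly as much over the whole span (-2.0 against -2.01). *Vcam1* stood at 42.8, 34.3, 33.4 and 27.9 CPM at E18.5, at 8.97, 9.42, 12 and 8.57 at 2 wks, and at 10.9, 8.90, 4.93 and 6.53 at 7 wks. Every fetal library was above every later one, and the later ages overlapped. From a mean of 34.6 ± 6.16 CPM (SD, *n* = 4) it fell to 9.73 ± 1.52 at 2 wks, a log2 fold change of -1.83 (SE 0.23, adjusted p = 1.38e-05), with a further -0.32 (SE 0.22, adjusted p = 0.314) to 7.82 ± 2.63 at 7 wks. The change before 2 wks was more negative than the change after it by 1.51 (difference -1.51, SE 0.40, adjusted p = 0.01), a difference that did not pass with the GC trend removed (-0.75). The change after 2 wks did pass in that fit (-0.63) and with total counts (-0.66). *Vcam1* is also expressed by cells other than satellite cells, among them endothelial and stromal cells. The summed CPM of 7 endothelial genes moved the other way, from 369 to 540 at E18.5 to 944 to 1103 at 2 wks, and that of 6 fibroblast genes went from 4520.2 to 8705 at E18.5, through 3256 to 4786, to 857 to 2867 at 7 wks. The fibroblast sum was mostly *Col3a1*, with 2989 to 5141 CPM at E18.5. Of its 6 genes 3 fell and 1 rose to 2 wks (34.2% and 31.5% of all genes). *Pdgfra* went from 113 to 183 CPM to 23.1 to 45.8, and *Lum* from 234 to 408 to 71.2 to 104. *Ly6a* went up, from 26.8 to 36.0 CPM to 40.0 to 76.3. The part of these cells in the change of *Vcam1* was not tested.

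*Chodl*, which encodes a C-type lectin-like membrane protein, also fell before 2 wks. Its libraries read 69.5, 35.4, 31.9 and 33.6 CPM at E18.5, 20.6, 14.5, 19.3 and 17.2 at 2 wks and 20.4, 17.3, 12.4 and 19.9 at 7 wks. Replicate 1 at E18.5 was about 2 times the other fetal libraries, and all fetal libraries were above all later ones. The log2 fold change to 2 wks was -1.25 (SE 0.25, adjusted p = 0.000572), and without that replicate it was -0.91 and still passed. From 2 to 7 wks the change was -0.03 (SE 0.25, 95% interval -0.51 to 0.45), and the difference between the intervals was -1.22 (SE 0.44, adjusted p = 0.04). That difference did not pass with the GC trend removed (-0.57), nor in 7 of the 12 fits with 1 library left out, those without any one library at 2 wks and without replicate 1, 2 or 4 at 7 wks (-1.03 to -1.33).

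*Spry1*, an inhibitor of growth factor signalling through receptor tyrosine kinases, was the one member with a rise past the threshold with TMM scaling. Its level was 20.5, 28.6, 15.5 and 16.9 CPM at E18.5, 29.4, 35.5, 24.4 and 24.7 at 2 wks and 23.6, 22, 23.3 and 19.1 at 7 wks. Replicate 2 at E18.5 lay within the range at 2 wks, and the other fetal libraries lay below it. The log2 fold change to 2 wks was 0.49 (SE 0.19, adjusted p = 0.0385), the later change was -0.37 (SE 0.19, adjusted p = 0.166) although 2 and 7 wks did not overlap, and the change over the whole span was 0.11 (95% interval -0.27 to 0.49). The rise was 0.70 without replicate 2 at E18.5 and did not pass without any one of replicates 1, 3 and 4 at E18.5 or replicates 1 and 2 at 2 wks (0.37 to 0.50). Nor did it pass with DESeq2 (0.44), upper-quartile scaling (0.35), either other filter (0.44 and 0.37) or only the 8 libraries compared (0.48). Its direction turned with the scaling: with total counts the change to 2 wks was -0.43, against a median of all genes of -1.02, and with the GC trend removed it was -0.72, against -0.23, and only the second passed. An annotated transcribed region on the opposite strand, *Gm42922*, shares 909 exon bases with *Spry1* and had at most 50 counts, and reads in the overlap may have been left out or counted on either gene, depending on the strand setting.

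*Cdh15* encodes M-cadherin, which joins satellite cells to fibres and myoblasts to each other. It was measured at 8.84, 27.0, 14.1 and 10.7 CPM at E18.5, at 21.7, 17.3, 23.0 and 24.6 at 2 wks, and at 13.9, 15.2, 25.3 and 17.6 at 7 wks. Replicate 2 at E18.5 was above every other library of the series, and without it the fetal libraries lay below all those at 2 wks. The log2 fold change to 2 wks was 0.51 (SE 0.30, 95% interval -0.08 to 1.1, adjusted p = 0.148) with all libraries and 0.95, past the threshold, without replicate 2. Removal of the GC trend gave a change in the opposite direction that passed the threshold (-0.49), and scaling to total counts one that did not (-0.43). Transcripts of *Spry1* and *Cdh15* had the highest GC content of the members, 58.3% and 57.5%, and *Vcam1* and *Chodl* the lowest, 40.1% and 43.0%. The libraries differed in their trend over GC content with age, and its part in these changes was not tested beyond the corrected fit.

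*Calcr*, the receptor whose signalling keeps satellite cells quiescent in adult muscle, overlapped between all ages. The counts ranged from 189 to 517 in fetal libraries, from 94 to 392 at 2 wks and from 49 to 93 at 7 wks, and the levels were 3.58, 2.72, 0.922 and 2.17 CPM, 2.78, 4.04, 1.49 and 1.23 CPM, and 1.14, 1.44, 0.751 and 1.5 CPM. The highest library was replicate 2 at 2 wks and the lowest replicate 3 at 7 wks. The log2 fold change was 0.03 (95% interval -0.80 to 0.86) to 2 wks, -0.98 (-1.84 to -0.12, adjusted p = 0.111) from 2 to 7 wks and -0.95 (-1.81 to -0.10, adjusted p = 0.0628) over the whole span. The last change passed in 9 of the alternatives, among them DESeq2, both other filters and total counts, at values of -0.84 to -2.21.

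Of the 7 members, 4 changed from E18.5 to 2 wks, *Spry1* upward and *Pax7*, *Vcam1* and *Chodl* downward, where 65.7% of all tested genes changed (31.5% higher, 34.2% lower). From 2 to 7 wks 1 member changed, *Pax7*, downward, against 27.5% of all genes (13.5% higher, 13.9% lower). Over the whole span *Pax7*, *Vcam1* and *Chodl* fell, 3 of 7, against 71.4% of all genes (34.3% higher, 37.1% lower). Counted in either direction, the share of members that changed was not above that of all genes in any of these comparisons. The median log2 fold change of the members was -0.28, -0.32 and -0.95 in the 3 comparisons, and that of all genes -0.09, -0.03 and -0.09. The changes of the intervals differed for 2 members, *Vcam1* and *Chodl*, both more negative to 2 wks, against 38.4% of all genes (21.6% higher, 16.8% lower). Libraries did not overlap for 3 members from E18.5 to 2 wks, 2 from 2 to 7 wks and 3 over the whole span, against 61.3%, 33.7% and 63.4% of all genes. With total counts 0 members were higher and 4, 4 and 7 were lower, against 61.9%, 28.0% and 69.0% of all genes lower, and with the GC trend removed 0 were higher and 5, 1 and 5 lower, against 39.6%, 18.6% and 44.4%. Under both of these and the TMM fit, *Pax7*, *Vcam1* and *Chodl* fell over the whole span.

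**Figure D2:**
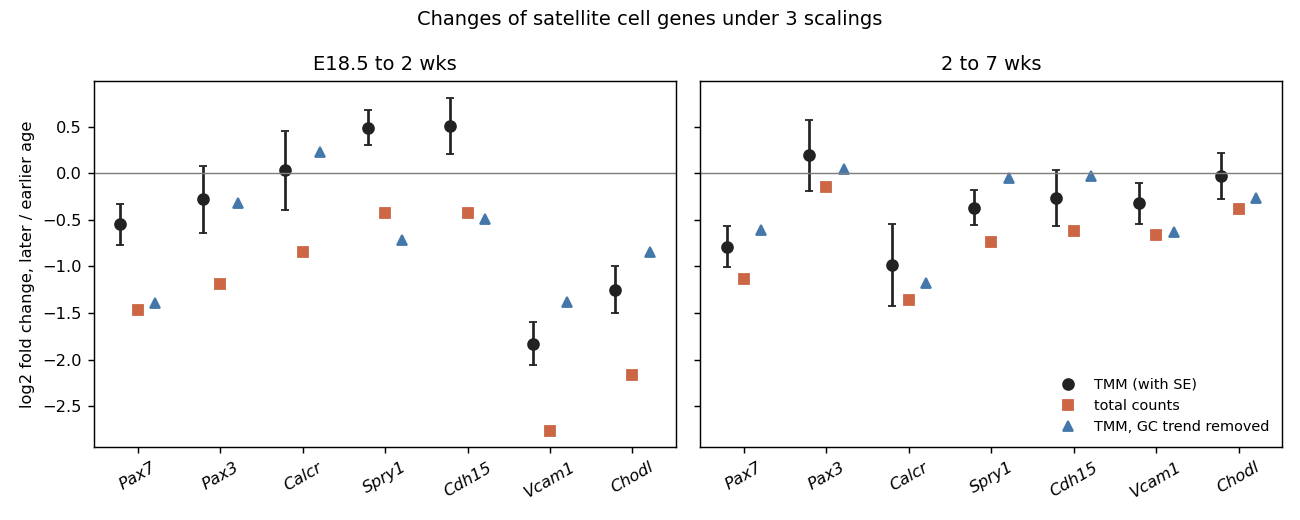
Log2 fold change of each member in both intervals, with TMM scaling (circles, with SE), total counts (squares) and TMM with each library's GC trend removed (triangles), from fits of 12 libraries. *Vcam1* and *Chodl* are below 0 under all 3 in the first interval, and *Spry1* and *Cdh15* are above 0 only with TMM.

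The ratio of each member's counts to those of *Pax7* in the same library does not depend on how libraries are scaled, though it does depend on the GC trend, and it sets the genes against the marker of the cells. *Spry1* gave 1.58 to 1.79 counts per *Pax7* count at E18.5, then 2.84 to 4.17 at 2 wks, and by 7 wks 3.83 to 6.28. *Cdh15* gave 0.774 to 1.56, then 2.03 to 3.57, then 2.43 to 6.81. Both ratios were higher at each later age than at E18.5 without overlap, by 1.03 and 1.16 on the log2 scale at 2 wks and by 1.47 and 1.67 at 7 wks. The fetal ratio of *Spry1* was the steadiest of all, with replicate 2 inside the range of the others. *Vcam1* gave 1.98 to 3.74 counts per *Pax7* count at E18.5, then 0.994 to 1.39 at 2 wks, and by 7 wks 1.33 to 1.91, a log2 difference of -1.31 to 2 wks without overlap and of 0.44 after it. With the GC trend removed, however, *Vcam1* and *Pax7* had nearly equal log2 fold changes to 2 wks (-1.38 and -1.39), and their transcripts differ in GC content (40.1% and 55.3%). In that fit *Spry1* (-0.72) and *Cdh15* (-0.49) still fell less than *Pax7* to 2 wks, a difference that was not tested. *Chodl* went from 2.04 to 6.08, through 1.70 to 2.49, to 3.02 to 4.93, with no overlap between 2 and 7 wks (0.76). *Calcr* overlapped at all ages (0.0944 to 0.314, 0.174 to 0.475 and 0.202 to 0.374), and *Pax3* per *Pax7* was higher at 7 wks than at both earlier ages (0.91 over 2 wks, 1.22 over E18.5), at 14 to 29 *Pax3* counts a library.

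In all, 9 of the 18 ratio comparisons had ages that did not overlap. In the two-sided exact permutation test each of these reached p = 0.0286, the smallest that 4 mice against 4 allow, and the adjusted p over the 18 was 0.0571, so 0 passed the threshold of 0.05. Non-overlap with *Pax7* as the denominator was common: it held for 53.0% of all tested genes from E18.5 to 2 wks (3 of the 6 members), 48.2% from 2 to 7 wks (2 of 6) and 68.4% over the whole span (4 of 6).

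**Figure D3:**
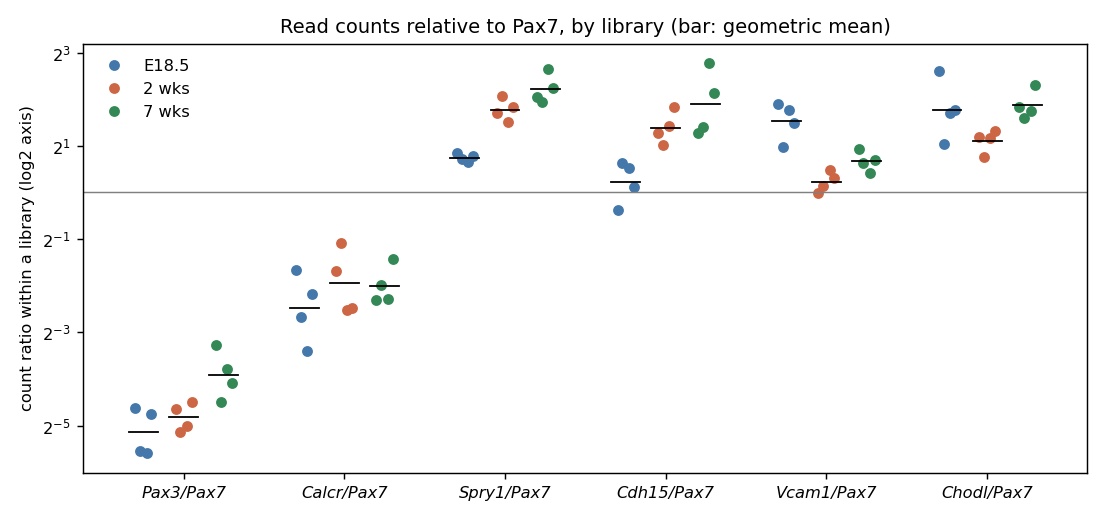
Counts of 6 members relative to *Pax7* in the same library (log2 axis), by age, with 1 point per library (*n* = 4) and a bar at the geometric mean. The ratios of *Spry1* and *Cdh15* at E18.5 lie below those of both later ages, and that of *Vcam1* lies above them.

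With TMM scaling the members did not share a profile. As a measure of likeness, the root mean square difference between centred log2 CPM over the 12 libraries was taken, for 19033 genes. The closest pair of members, *Spry1* and *Cdh15*, differed by 0.41, and *Vcam1* and *Chodl* by 0.48. The nearest member to *Pax7* was *Chodl* at 0.51, which was rank 2444 among all genes. The genes nearest to *Pax7* were *Plat* (0.16), the tissue plasminogen activator, *Tshz3* (0.17) and *Parva* (0.17). For *Spry1* they were *Arl6ip5* (0.16), the Notch target *Heyl* (0.18) and *Gstt3* (0.19), and for *Cdh15* they were *Lrwd1* (0.14), *Pold2* (0.15) and *Mad1l1* (0.17), which act in DNA replication and mitosis. *Gstcd*, *Spty2d1* and *Slc36a4* (0.13 to 0.15) were nearest to *Vcam1*, *Bclaf3*, *Srsf1* and *Tasor* (0.16 to 0.17) to *Chodl*, *Fgl2*, *Abca8b* and *Ppat* (0.23 to 0.30) to *Pax3*, and *Mamdc2*, *Fsd1l* and *Msx2* (0.35 to 0.44) to *Calcr*. The libraries share their scaling, so these values are descriptions only. They were taken with TMM scaling and not with the GC trend removed, and the pairing of members can turn with it. With the GC trend removed, *Vcam1* changed by -1.38 to 2 wks and -2.01 over the whole span, close to *Pax7* (-1.39 and -2.0). *Chodl* changed by -0.84 and -1.11 in that fit.

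Notch signalling and cell cycle inhibitors hold satellite cells quiescent. Of 15 genes listed for Notch signalling or quiescence, not all of them of these 2 classes, 12 changed from E18.5 to 2 wks. Of these, 5 went upward and 7 downward, where 65.7% of all genes changed. The counts of this and the next 3 lists stand against that share, 27.5% from 2 to 7 wks and 71.4% over the whole span. By direction, 31.5%, 13.5% and 34.3% of all genes were higher and 34.2%, 13.9% and 37.1% lower in the 3 comparisons. With total counts 61.9%, 28.0% and 69.0% of all genes were lower, and their median changes were -1.02, -0.38 and -1.37. With the GC trend removed 39.6%, 18.6% and 44.4% of all genes were lower. The ligands *Dll4* (1.82) and *Dll1* (1.09) and the receptor *Notch3* (0.75) had the largest rises on the log2 scale, although *Dll1* did not pass with total counts (0.16) and *Notch3* turned with both other scalings (-0.18 with total counts, -0.50 after GC correction). The summed CPM of endothelial and of mural genes also rose to 2 wks (below), and the part of other cells in these rises was not tested. The largest falls were those of *Tenm4*, a teneurin (-2.54), *Cdkn1c*, the cyclin-dependent kinase inhibitor p57 (-1.60), and *Notch2* (-1.52). From 2 to 7 wks 8 fell and 0 rose, led by *Cdkn1c* (-2.71), *Megf10*, a receptor of satellite cells (-1.74), and *Tenm4* (-1.72). Over the whole span 8 changed, with *Cdkn1c* down by 4.31 (adjusted p = 1.47e-07), *Tenm4* by 4.25 and *Megf10* by 3.02, and with a rise of *Dll4* (1.19) that turned with total counts (-0.09). *Cdkn1c* went from 230 to 405 CPM at E18.5 to 12.9 to 18.2 CPM at 7 wks. The median changes of the list were -0.12, -0.68 and -0.21. With total counts 1, 0 and 0 were higher and 10, 10 and 14 lower, and with the GC trend removed 2, 0 and 1 were higher and 8, 6 and 12 lower.

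Of 14 surface proteins used to find or sort satellite cells, 8 changed to 2 wks, 4 in each direction, a share below that of all genes. *Ncam1*, the neural cell adhesion molecule of fetal muscle, fell by 2.41 on the log2 scale (adjusted p = 6.06e-08), from 78.0 to 122 CPM to 16.3 to 19.2 CPM. *Egfr* fell by 1.2 and the integrin β1 gene *Itgb1* by 0.65, the latter not past the threshold with the GC trend removed (-0.36). The integrin α7 gene *Itga7* rose (1.33), as did the chemokine receptor *Cxcr4* (0.80) and the syndecan *Sdc3* (0.69), but with total counts these were 0.38, -0.11 and -0.24 and none passed. From 2 to 7 wks 6 fell, with *Fgfr4* (-1.46), *Cd82* (-1.38) and *Cxcr4* (-1.32) first, and 1 rose, *Met*, the receptor of hepatocyte growth factor (0.67, and 0.32 with total counts). Over the whole span 7 fell, among them *Ncam1* (-3.20), *Fgfr4* (-2.02) and *Cd82* (-1.50), and 2 rose, *Itga7* (0.98) and *Dag1* (0.52), both of which turned with total counts (-0.30 and -0.75). The medians were 0.02, -0.35 and -0.56. No surface gene was higher with total counts in any of these comparisons (0 of 14), and 11, 9 and 13 were lower. With the GC trend removed 2, 1 and 0 were higher and 6, 7 and 9 lower.

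The 17 progenitor and myogenic genes, of which 16 were tested, moved apart from each other. To 2 wks 8 rose and 4 fell. The homeobox genes *Lbx1* (2.95), *Pitx3* (2.41) and *Msx1* (1.70) rose most, *Lbx1* from 1.47 to 3.60 CPM to 16.4 to 24.4 CPM, and *Msx1* did not pass with the GC trend removed (0.51). *Myf5*, the first of the myogenic regulatory factors in the lineage, fell by 1.81, and the fusion genes *Mymk* and *Mymx* fell by 1.55 and 1.39. *Myod1*, which marks activated satellite cells and myoblasts, was at 0.52 with TMM (adjusted p = 0.0971), and with the GC trend removed it fell, by 0.69 to 2 wks and by 0.70 over the whole span. From 2 to 7 wks 5 fell and 2 rose: *Mymk* fell by 4.2 and *Myog*, the factor of differentiation, by 3.01, and *Mymx* went from 56 to 150 counts to 1 to 8 counts a library. The rises were those of *Eya1* (1.03) and *Six4* (0.76), which form a transcription complex, the second not past the threshold with total counts (0.41). Over the whole span 15 of 16 changed, 9 upward and 6 downward. *Lbx1* (3.22), *Eya1* (2.41) and *Pitx3* (1.28) had the largest rises, and *Pitx3* was at -0.00 with total counts. *Mymk* (-5.76) and *Myog* (-3.53) fell, as did *Mymx*. The medians were 0.63, -0.40 and 0.76. The split depended on the scaling: with total counts 3, 1 and 2 were higher and 7, 9 and 8 lower, and with the GC trend removed 5, 3 and 5 were higher and 6, 7 and 7 lower.

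The last list held 26 ligands, receptors, paralogues and effectors of the 7 members, of which 24 were tested. Of these, 15 changed to 2 wks, 2 upward and 13 downward, and 5 from 2 to 7 wks, 1 upward and 4 downward. Over the whole span 16 changed, 2 upward and 14 downward. The medians were -0.64, -0.21 and -0.54, and those of all genes -0.09, -0.03 and -0.09. Counted in either direction, the shares were below those of all genes in every comparison. Falls alone were above the shares of all genes (34.2%, 13.9% and 37.1%), and rises alone below them (31.5%, 13.5% and 34.3%). With total counts 1, 0 and 0 were higher and 20, 11 and 22 lower, and with the GC trend removed 1, 1 and 1 were higher and 14, 6 and 17 lower. Around the calcitonin receptor, *Calca*, which encodes calcitonin and its relative CGRP, had 379 to 586 counts in the libraries at E18.5 and 0 to 2 counts at both later ages. Its partner genes *Ramp1* and *Ramp2*, whose products set the ligand preference of the receptor family, rose to 2 wks (2.11 and 1.27), but *Ramp2* was at 0.35 with total counts and at 0.06 after GC correction. Collagen V is a known ligand of the receptor, and *Col5a1* fell in both intervals (-0.94 and -1.80), as did *Col5a2* (-1.65 and -1.27). *Col5a3* fell from 2 to 7 wks (-0.96), though not past the threshold with the GC trend removed (-0.41). The Hippo kinase *Lats1*, a downstream effector, fell to 2 wks (-0.77) and rose after (0.47, and 0.12 with total counts).

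Around the other members, the integrin α subunits that bind VCAM1 fell with their ligand: *Itga4* by 0.65 to 2 wks, though not past the threshold with the GC trend removed (-0.21), and *Itga9* by 0.64 and then by 1.18. The paralogue of *Cdh15* in fetal muscle, the N-cadherin gene *Cdh2*, fell by 2.62 to 2 wks (adjusted p = 7.2e-06), from a mean of 16.4 ± 2.39 CPM (SD, *n* = 4) to 2.67 ± 0.286 CPM. In the growth factor pathway that Sprouty1 restrains, *Spry4* fell by 0.70, *Spred1* by 1.47, the ligand *Fgf2* by 1.41 and the muscle ligand *Fgf6* by 1.18 to 2 wks, while *Spry2* was at -0.23 (adjusted p = 0.213) and passed with total counts (-1.16). *Hgf*, the ligand of *Met*, had 409 to 712 counts at E18.5, only 7 to 21 at 2 wks, then 3 to 25 at 7 wks, a log2 fold change of -3.97 (SE 0.54) to 2 wks.

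**Figure D4:**
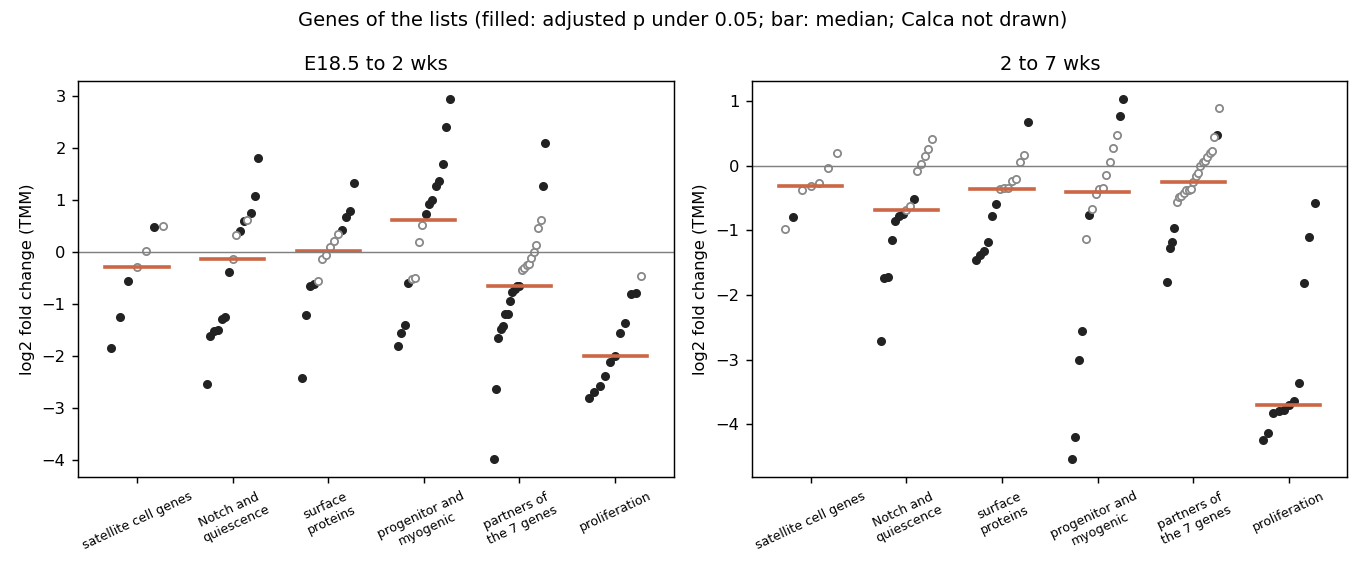
Log2 fold change (TMM) of every tested gene of the members' list, 4 related lists and a proliferation list in both intervals, filled where the adjusted p was under 0.05, with the list median as a bar and *Calca*, at 0 to 2 counts after E18.5, not drawn. The proliferation list has the lowest median of these lists in the second interval (-3.70), although single genes of other lists lie as low.

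Genes of other processes and cells moved with age in the same libraries. The counts below stand against 31.5% of all tested genes higher and 34.2% lower to 2 wks. From 2 to 7 wks these shares were 13.5% and 13.9%, and over the whole span 34.3% and 37.1%. Of 11 proliferation genes, 10, 11 and 11 fell in the 3 comparisons, and their summed CPM went from 552 to 816 at E18.5 through 134 to 251 to 29.5 to 41.8 at 7 wks. All 7 genes of mature fast fibres rose to 2 wks (median 3.86), and 0 of 7 changed after, with sums of 6443 to 14195, 144482 to 170390 and 159281 to 197085 CPM. Of the 7 endothelial genes 5 rose to 2 wks and 2 fell after, and of 5 mural genes 3 rose and then 2 fell. Over the whole span 4 endothelial genes rose and 0 fell, while 3 mural genes rose and 2 fell. *Rgs5*, at 625 to 757 CPM, made up most of the mural sum at 7 wks (876 to 1103 CPM). Of 6 macrophage genes 3 fell and 1 rose to 2 wks and 5 fell after, with sums of 163 to 202, 67.7 to 93.3 and 18.1 to 61.9 CPM. Of 6 fibroblast genes 3 fell and 1 rose, then 2 fell and 1 rose. Of 6 Schwann cell genes 2 rose and 3 fell, then 3 fell, and their sum was highest in replicate 1 at 2 wks (455 CPM, against 93.7 to 171 in the other 3). The 5 melanocyte and skin genes summed to at most 10.4 CPM in any library, and *Krt5* was at 0 in 3 libraries. The part of the other cells in the changes of the members and of the related lists was not tested.

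**Figure D5:**
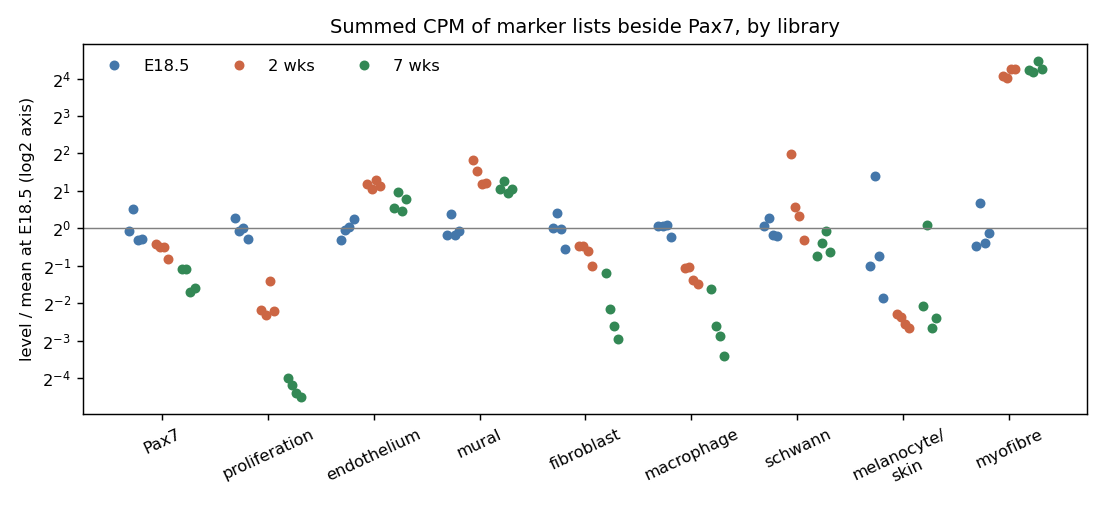
Summed CPM of 8 marker lists, and CPM of *Pax7*, each divided by its mean at E18.5 (log2 axis), with 1 point per library and *n* = 4 per age. *Pax7* declines less than the proliferation and macrophage sums, while the endothelial and mural sums at both later ages lie above the mean at E18.5.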

How the data were processed

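RNA of TA muscle of 12 mice (*n* = 4 per age) was isolated with TRI Reagent, made into stranded polyA libraries and sequenced as paired-end 100 bp reads. The submitters' processing notes name bcl2fastq 2.17.1.14, cutadapt 1.10, STAR 2.5.3a, HTSeq 0.6.1p1 and the mm10 build, while the methods of the study name GRCm39. The build is therefore not certain, and counts are reported by gene identifier. The strand setting and the annotation release of the counting were not given in the sources used here. The deposited values are raw counts per Ensembl gene, which the authors did not normalize. All values were whole numbers.

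After TMM scaling, all 12 libraries were fitted together by age alone with edgeR 4.0.16 under R 4.3.3 (limma 3.58.1), and its quasi-likelihood test was used. Low counts led filterByExpr to remove 36174 genes, which left 19276. P-values were adjusted over these by the Benjamini-Hochberg method and called under 0.05. Ages were compared in pairs, and the change to 2 wks was compared with the change from 2 to 7 wks as a contrast. Intervals are 95% intervals from the fold change and its SE. Ratios to *Pax7* (0.5 added to each count) were compared in a two-sided exact permutation test over 70 regroupings. The biological coefficient of variation was 0.279, and no pair of replicates agreed within sampling noise (chi-square per degree of freedom 34.3 to 577). Library totals were 63018968 to 123449246, and counting error matters mainly for *Pax3*, with 14 to 73 counts a library. Exon lengths and GC content come from GENCODE vM39 and sequences from RefSeq on GRCm38.p6. Python 3.11.15 with pandas 2.3.3 and matplotlib 3.10.9 made the tables and figures.

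The members and lists were chosen with earlier results of these data known. Named were all members, the 3 largest rises and falls past the threshold in each of 4 lists and comparison, list genes that are paralogues, ligands or receptors of a member, and the 3 genes nearest to each member in profile. *Myod1* and *Hgf* were named from the lists as well, and *Krt5*, *Rgs5* and some fibroblast genes from the marker lists. *Sox15* and *Calcb* had too few counts (at most 5 and 4), and *Spry3* was not matched. Alternatives were total count and upper-quartile scaling, TMM without the 20 most abundant and the 37 mitochondrial genes, DESeq2 1.42.0, no filter on low counts, a minimum of 10 counts in each library, a block for the replicate number, only the 8 libraries compared, a log2 fold change beyond 1, removal of each library's GC trend, and each library left out in turn. In simulated counts for the change from E18.5 to 2 wks at a dispersion of 0.08, edgeR recovered 68 of 200 genes changed by a factor of 2. There were 4 false calls among 18864 genes. Of 200 genes changed by a factor of 4, 192 were recovered, with 5 false calls among 18896. Only these 200 genes were changed, equally upward and downward, whereas 65.7% of all tested genes changed in the data. Recovery and false calls under such a broad change in composition were not simulated.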

Additional observations from a re-analysis of the deposited data

Results flagged for a closer look

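Over the 7 members and 3 ages, 21 sets of 4 libraries were examined for a library far from the others, and about 1.05 would stand out by chance. In 2 sets a library did. *Pax3* in replicate 1 at 7 wks reached 0.582 CPM where the remaining libraries had 0.231 to 0.260, from 29 counts against 14 to 17. *Chodl* in replicate 1 at E18.5 reached 69.5 CPM where the remaining ones had 31.9 to 35.4, and without this library its log2 fold change to 2 wks was -0.91 and still past the threshold.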

How the results depend on the processing

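The 4 counts of changed members (E18.5 to 2 wks, 2 to 7 wks, E18.5 to 7 wks, difference of the intervals) were 4, 1, 3 and 2. With each library left out in turn they ranged from 2 to 4, 0 to 1, 3 to 4 and 1 to 4. The corresponding ranges for the comparisons of ages were 9 to 13, 5 to 10 and 7 to 8 for the Notch and quiescence genes, 7 to 9, 5 to 7 and 8 to 10 for the surface genes, 11 to 13, 5 to 9 and 14 to 15 for the progenitor genes, and 13 to 15, 4 to 7 and 13 to 16 for the partner genes. With a log2 fold change beyond 1 required, 1, 0, 1 and 0 members remained past the threshold, with 5, 2 and 4 Notch and quiescence genes, 1, 0 and 4 surface genes, 5, 4 and 7 progenitor genes and 6, 0 and 9 partner genes. The shares of all genes called under this requirement or with a library left out are not given here, so these counts cannot be set against them. The same holds for the counts below with upper-quartile scaling, only the 8 libraries compared and the replicate block. Total counts moved the members to 4 from 2 to 7 wks and 7 over the whole span, the partner genes from 2 to 7 wks to 11 and the Notch and quiescence genes over the whole span to 14. Removal of the GC trend gave 5 members and 13 Notch and quiescence genes over the whole span, and 0 members for the difference of the intervals. Upper-quartile scaling gave 8 partner genes and the fit of only the 8 libraries compared gave 2 members, both from 2 to 7 wks. The direction reversed for *Spry1* to 2 wks (-0.43 with total counts, -0.72 with the GC trend removed) and over the whole span (-1.16 and -0.77), and for *Cdh15* to 2 wks (-0.49 with the GC trend removed) and over the whole span (-1.04 with total counts, -0.52 with the GC trend removed). Their causes were not tested. Of 879 values of single genes and ratios under the alternatives, 817 stayed on their side of the threshold with no passing change of direction. Another 34 no longer passed, 21 newly passed and 7 reversed. The 817 include ratios to *Pax7* with a library left out or under the replicate block, which could not pass (below). For the ratios this count is therefore no measure of stability.

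Deviations of libraries of different ages had correlations of -0.142 to 0.284 where the replicate number was shared and of -0.289 to 0.236 where it was not. These ranges overlapped, and the highest value was that of replicate 1 at E18.5 with replicate 1 at 7 wks. Nothing in the labels ties libraries of the same number to a litter or batch. With the replicate block 4, 1, 4 and 3 members changed, the additional ones being *Calcr* over the whole span and *Spry1* for the difference of the intervals. For ratios to *Pax7*, 0 of 18 passed under every alternative. The exact sign-flip test of the replicate block cannot go below p = 0.125, nor 3 mice against 4 below 0.0571, so those alternatives say nothing of stability. The depth limits *Pax3* most, and a change of *Pax3* by less than its interval was not detectable.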
